A study of Mus musculus with 9 samples.

Results

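Transcripts of 10 cortical neuropeptide genes, Sst, Npy, Vip, Cck, Tac1, Tac2, Cort, Crh, Penk and Pdyn, were followed in prefrontal cortex (PFC) RNA of Rag1-/- and wild-type mice. They were taken as a named list and found in the count table by their Ensembl identifiers, with symbols from GENCODE mouse on GRCm38. All 10 were present among the 56246 genes of the table, and all 10 passed the filter on low counts that left 17948 genes for testing. Of these genes Sst passed the test as higher in Rag1-/- + vehicle than in WT cortex, where 16% of all genes passed in either direction. This call was lost under 7 of 21 alternative settings. The other members did not pass the test in any of the 3 comparisons, but some did under alternative settings. In Rag1-/- + vehicle against WT, DESeq2, the program the study used, called 6 members on all 9 libraries. It called 13.7% of the 35062 genes given a p-value. Leaving out single libraries gave 0 to 7 members, beside 0 to 35% of all genes.

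The RNA came from frontal cortex of male, young adult, PBS-perfused mice on the C57BL/6 background, in 9 libraries with 3 per group. Rag1 encodes a subunit of the recombinase that assembles antigen receptor genes, and mice without it lack mature T and B cells. The Rag1-/- + WT EVs group (EV libraries, replicates 2, 3 and 5) had received extracellular vesicles, small membrane particles isolated from the blood of WT mice, by intravenous injection. The Rag1-/- + vehicle group (vehicle libraries, replicates 1, 2 and 3) had the same germline deletion, carried in every cell, and received medium without vesicles. The WT group (WT libraries, replicates 1, 3 and 6) carries no treatment in its labels, although its titles and the study mark it as receiving medium. No label says how many mice a library holds; 1 mouse each was assumed, and p-values cover only the variation among these libraries.

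Neuropeptides are cut from larger precursor proteins inside dense-core vesicles and are released during sustained firing to act on G protein-coupled receptors. In the cortex most of them are made by GABAergic interneurons, and several serve as names of interneuron classes. Somatostatin cells inhibit the distal dendrites of pyramidal cells, whereas vasoactive intestinal peptide cells mainly inhibit other interneurons. Cholecystokinin is made both by a class of basket cells and by many pyramidal cells. Transcription of several of these precursors, with somatostatin as the classical case, is switched on by cAMP through the factor CREB, which binds the palindrome TGACGTCA or its shorter core TGACG.

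Because these genes differ in whether that element stands near their start, the sites are shown before the levels. RefSeq start windows (GRCm38.p6, 250 bases before to 50 bases after each start) matched 8 of the 10 genes, with Penk and Crh unmatched. Both strands were searched for the palindrome and its core, and each palindrome also holds the core. Over all 32851 windows, 1.79% held the palindrome and 20.8% the core. Among the members the palindrome was found in Sst alone, on chr16:23890875-23890902 (minus strand), beginning at position -48 relative to the start. The core was found in Vip (chr10:5639128-5639155, plus strand), Cort (chr4:149126765-149126792, minus strand), Tac1 (chr6:7555007-7555034, plus strand, and a further site at -197) and Cck (chr9:121495725-121495752, minus strand). The windows of Npy and Tac2 and both windows of Pdyn held neither. Coordinates are those of the printed 28-base stretches, and each position is that of the first matched letter. Capitals mark the matched letters, read 5′ to 3′ in the direction of transcription, so CGTCA is the core on the other strand.
Sst, palindrome at -48: cctccttggcTGACGTCAgagagagagt
Cck, core at -47: ctgctggactgCGTCAgcactgggtaaa
Tac1, core at -43: ctctacaggctCGTCAcgcctgagataa
Vip, core at -79: gatcactactgTGACGtctttcggggag
Cort, core at -18: tccggcttgtgCGTCAccgcgtgagtgt
A TATAAA stretch on the coding strand, present in 8.32% of all windows, was found among the members only in Vip. These matches describe the letters of the windows and were not set against the expression values.

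Gene reads per library numbered 32 to 41.2 M. Reads over Rag1 itself, the targeted gene, were 6.26 to 7.32 CPM (reads of a gene per M gene reads, with TMM-scaled library sizes) in EV libraries, 6.85 to 7.82 CPM in vehicle libraries and 0.232 to 1.09 CPM in WT libraries. They separated the libraries labelled Rag1-/- from WT, but counts over the whole gene do not show whether the deleted stretch was read. Tbr1, a marker of cortical pyramidal cells, averaged 117 CPM in EV, 154 CPM in vehicle and 114 CPM in WT libraries, whereas 7 hypothalamic genes summed to at most 2.59 CPM in any library. A set of 9 striatal markers summed to 143 to 191 CPM in EV, 159 to 171 CPM in vehicle and 115 to 145 CPM in WT libraries. The share of reads outside annotated exons was 7.73 to 11.2% in EV libraries, 6.54 to 6.9% in vehicle libraries and 8.11 to 30.1% in WT libraries, so the vehicle libraries lay below both other groups without overlap. WT replicate 6, at 30.1%, stood apart. It held the lowest level of 8 of the 10 members, so log2 fold changes of the members against WT are also given without it.

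The peptide genes covered a wide range of levels, compared here as CPM divided by the exonic length in kilobases (per length). Cck, Sst and Npy led in every group. Cck averaged 158 ± 19.8 in EV, 183 ± 17.2 in vehicle and 130 ± 41 in WT libraries per length (SD, n = 3 each). Sst followed at 100 ± 18.8 in EV, 130 ± 26 in vehicle and 68.3 ± 18.6 in WT libraries, and Npy at 56.7 ± 10.6 in EV, 69.3 ± 1.46 in vehicle and 45.4 ± 18.3 in WT libraries per length. Below them Penk, Vip and Pdyn stood in that order in EV and vehicle libraries with no overlap between neighbours. In EV libraries they averaged 16.5 ± 4.54, 11.2 ± 1.07 and 6.41 ± 0.333 per length. In WT libraries Vip (11.5 ± 3.28) preceded Penk (8.47 ± 4.95) and Pdyn (4.5 ± 2.01), but the values of each gene overlapped those of the next, as did those of Sst and Npy. Crh, Tac1, Cort and Tac2 averaged 1.28 to 3.04 per length in every group, and neighbours in the order overlapped throughout.

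**Figure D1:**
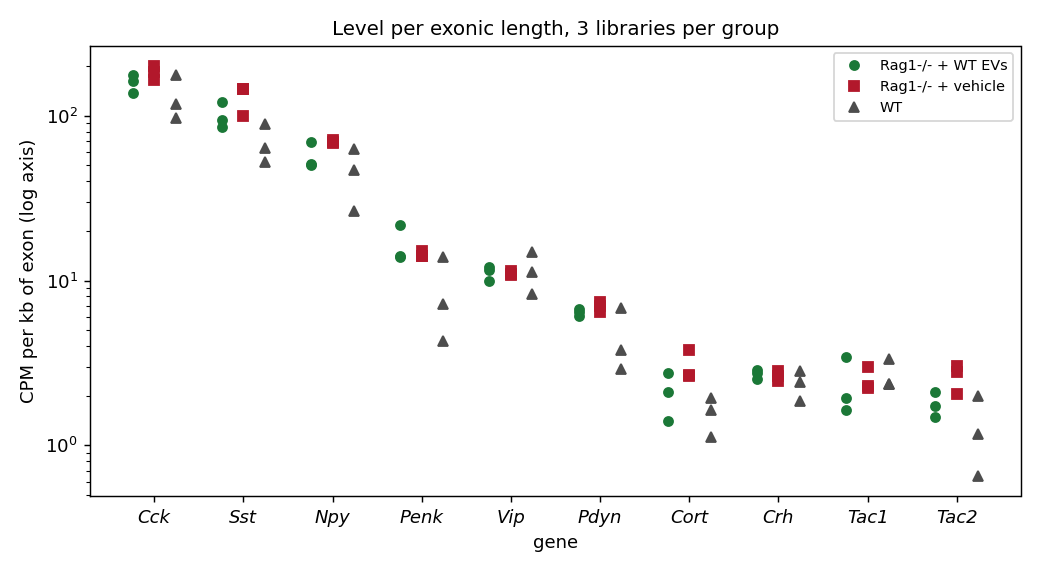
CPM per kilobase of exon (log axis) of the 10 neuropeptide genes, with 3 points per group for Rag1-/- + WT EVs (circles), Rag1-/- + vehicle (squares) and WT (triangles). Cck, Sst and Npy lie above the other members in every library, and the WT points of most genes are the most spread.

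Cck alone took 46.9 to 55.6% of the reads of the 10 genes in every library. The share of Vip in these reads was 7.82, 10.8 and 9.54% in EV replicates 2, 3 and 5 and 9.2, 7.59 and 7.39% in vehicle replicates 1, 2 and 3, against 12.7, 11.6 and 11.8% in WT replicates 1, 3 and 6. The 3 WT libraries thus held the highest shares of Vip, a value that also depends on the reads of the other members. The level of Vip itself averaged 38.2 ± 3.65 CPM in EV, 37.7 ± 1.4 CPM in vehicle and 39 ± 11.2 CPM in WT libraries (SD), and WT overlapped both Rag1-/- groups. Summed over the 10 genes, the level was 437, 380 and 413 CPM in EV libraries, 427, 483 and 501 CPM in vehicle libraries and 300, 438 and 239 CPM in WT libraries. WT replicate 3 therefore reached the Rag1-/- libraries, while WT replicates 1 and 6 lay below all of them.

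The comparison of Rag1-/- + vehicle with WT asks how the cortex of mice without mature T and B cells differs from that of normal mice. Of the 10 genes, 8 had higher mean levels in vehicle than in WT libraries, with a median log2 fold change of 0.62, beside a median of -0.03 over all genes tested. The median of the members was 0.37 without WT replicate 6, 1.03 without WT replicate 3, 0.38 with the replicate number as a block, and 0.15 both with 1 surrogate variable and with the outside-exon share of reads as a covariate. That share was lower in every vehicle library than in any WT library, and with it as a covariate 0 members and 0.607% of all genes passed. One member, Sst, passed edgeR's quasi-likelihood test at a Benjamini-Hochberg adjusted p under 0.05, and none was lower. Over all genes 16% passed this test, 6.28% as higher and 9.71% as lower, so 1 of 10 is close to what the whole table gives. At an unadjusted p under 0.05 the count was 7 of 10 members and 36% of all genes. In bulk tissue a change in the number of peptide-making cells and a change in RNA per cell cannot be told apart.

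Sst (chr16:23889573-23890958, minus strand) encodes preprosomatostatin. Vehicle replicates 1, 2 and 3 held 71.9, 104 and 105 CPM, against 45.8, 64 and 37.8 CPM in WT replicates 1, 3 and 6. Every vehicle library lay above every WT library, although vehicle replicate 1 and WT replicate 3 were close. The log2 fold change was 0.93 (SE 0.207, 95% interval 0.47 to 1.38, a 1.9-fold difference, edgeR adjusted p = 0.0257). Without WT replicate 6 it was 0.77 with an adjusted p of 0.0274. The call was lost without vehicle replicate 1, 2 or 3 or WT replicate 1 (adjusted p = 0.0658, 0.112, 0.0915 and 0.0563), with edgeR on only the 6 libraries compared (0.0596), with 1 surrogate variable (0.145) and with the outside-exon share of reads as a covariate (0.216). The log2 fold change stayed positive, between 0.57 and 1.21, under all 21 alternatives.

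**Figure D2:**
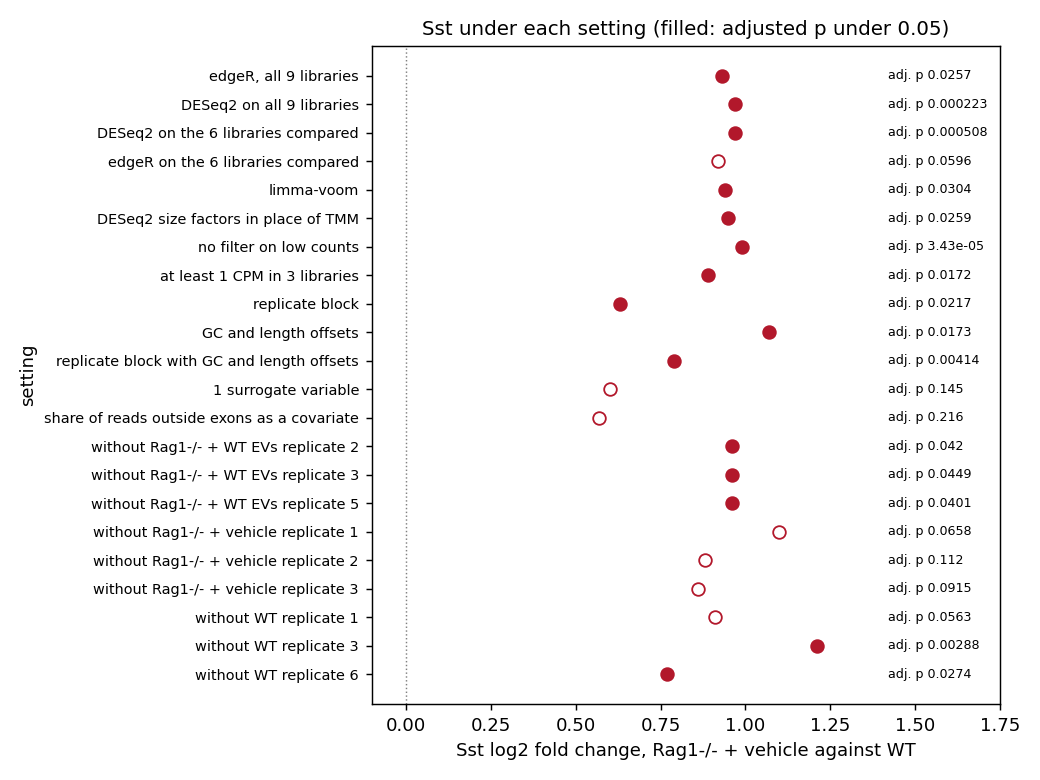
Log2 fold change of Sst in Rag1-/- + vehicle against WT under the edgeR fit on all 9 libraries (top) and each alternative, with its adjusted p at the right; filled points are under 0.05. All points lie above 0, from 0.57 to 1.21, and 7 of the alternatives are open.

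The genes whose pattern over the 9 libraries was most like that of Sst, among 12901 protein-coding genes averaging at least 1 CPM, were Hnrnpab, Dcaf12l1 and Scn3b. Their root mean square differences from Sst in standardised log2 CPM were 0.163, 0.166 and 0.181, beside a median of 1.21 over all candidates. As the smallest values among the candidates they lie below the median by selection. How small such values run for other genes was not tested.

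Cort, Npy, Tac2 and Penk also had every vehicle library above every WT library. With Sst, this made 5 of the 10 members without overlap in the higher direction, where 38.1% of all genes tested did not overlap in either direction and 18.3% did so as higher. None of these 4 passed the test. Cort (chromosome 4) encodes cortistatin, a relative of somatostatin that binds the same receptors. It had 1.82, 1.78 and 2.57 CPM in vehicle libraries, against 0.765, 1.32 and 1.11 CPM in WT libraries. All of these levels were low, with 26 to 109 reads per library. Its log2 fold change was 0.95 (SE 0.333, edgeR adjusted p = 0.0698) and was 0.97 without WT replicate 6.

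Npy (chromosome 6) encodes neuropeptide Y, made by neurogliaform cells and by part of the somatostatin cells. Its level was nearly the same in the vehicle libraries, at 40.2, 39 and 38.6 CPM, against 26.6, 35.6 and 14.9 CPM in WT libraries. WT replicate 6 was far below the rest. The log2 fold change was 0.61 (SE 0.242, edgeR adjusted p = 0.0977) and was 0.33 without that library. It came to 0.1 with the surrogate variable and 0.03 with the outside-exon share as a covariate.

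Tac2 (chromosome 10), the precursor of neurokinin B in mice, stood at 2.84, 3.85 and 4.17 CPM in vehicle libraries, against 1.62, 2.76 and 0.901 CPM in WT libraries. It had the largest log2 fold change among the 10 genes, 1.04 (SE 0.346, edgeR adjusted p = 0.06), which was 0.72 without WT replicate 6 and 0.44 and 0.4 with the surrogate variable and the outside-exon share. Vehicle replicate 1 lay just above WT replicate 3.

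Penk (chr4:4133531-4138819, minus strand) encodes the precursor of the enkephalins. Its level was 23, 24.9 and 23.1 CPM in vehicle libraries, against 11.8, 22.8 and 6.97 CPM in WT libraries. WT replicate 3 nearly reached the vehicle libraries, and the log2 fold change was 0.77 (SE 0.33, edgeR adjusted p = 0.119) over all libraries and 0.45 without WT replicate 6. With the surrogate variable it was 0.12 and with the outside-exon share 0.08. Since 14.3% of its exonic bases are shared with A830012C17Rik on the opposite strand and strand was not used in counting, its values are less certain than those of the other members, which share no exonic base with another gene.

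Pdyn (chromosome 2), the precursor of the dynorphins, had 21.5, 20.3 and 18.7 CPM in vehicle libraries, against 11, 19.5 and 8.44 CPM in WT libraries. WT replicate 3 lay within the vehicle range. The log2 fold change was 0.63 (SE 0.234, edgeR adjusted p = 0.081), but 0.4 without WT replicate 6 and 0.18 and 0.15 with the surrogate variable and the outside-exon share. Cck (chromosome 9) stood at 215, 242 and 259 CPM in vehicle libraries, against 153, 230 and 127 CPM in WT libraries. Here too WT replicate 3 lay among the vehicle libraries and the remaining WT libraries below them. Its log2 fold change was 0.49 (SE 0.187, edgeR adjusted p = 0.0875), but 0.32 without WT replicate 6 and 0.19 with either covariate.

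The remaining members showed small differences with intervals on both sides of 0. Vip (chromosome 10) had 39.3, 36.7 and 37 CPM in vehicle libraries, against 38.1, 50.6 and 28.4 CPM in WT libraries. The WT values thus spanned those of the vehicle group, and the log2 fold change was -0.05 (95% interval -0.42 to 0.32, edgeR adjusted p = 0.851). Tac1 (chromosome 6), the precursor of substance P and neurokinin A, stood at 7.76, 7.55 and 10.1 CPM in vehicle libraries, against 8.07, 7.97 and 11.3 CPM in WT libraries. It was the only member with its highest WT level in replicate 6, and its log2 fold change was -0.1 (95% interval -0.66 to 0.45, edgeR adjusted p = 0.795). Crh (chromosome 3) encodes corticotropin-releasing hormone, which in cortex is made by interneurons. It had 3.74, 3.45 and 3.25 CPM in vehicle libraries, against 3.18, 3.71 and 2.47 CPM in WT libraries, which overlapped. Its log2 fold change was 0.16 (95% interval -0.24 to 0.56, edgeR adjusted p = 0.563). The values were -0.24 for Vip, 0.08 for Tac1, where the sign turned, and 0.01 for Crh without WT replicate 6.

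**Figure D3:**
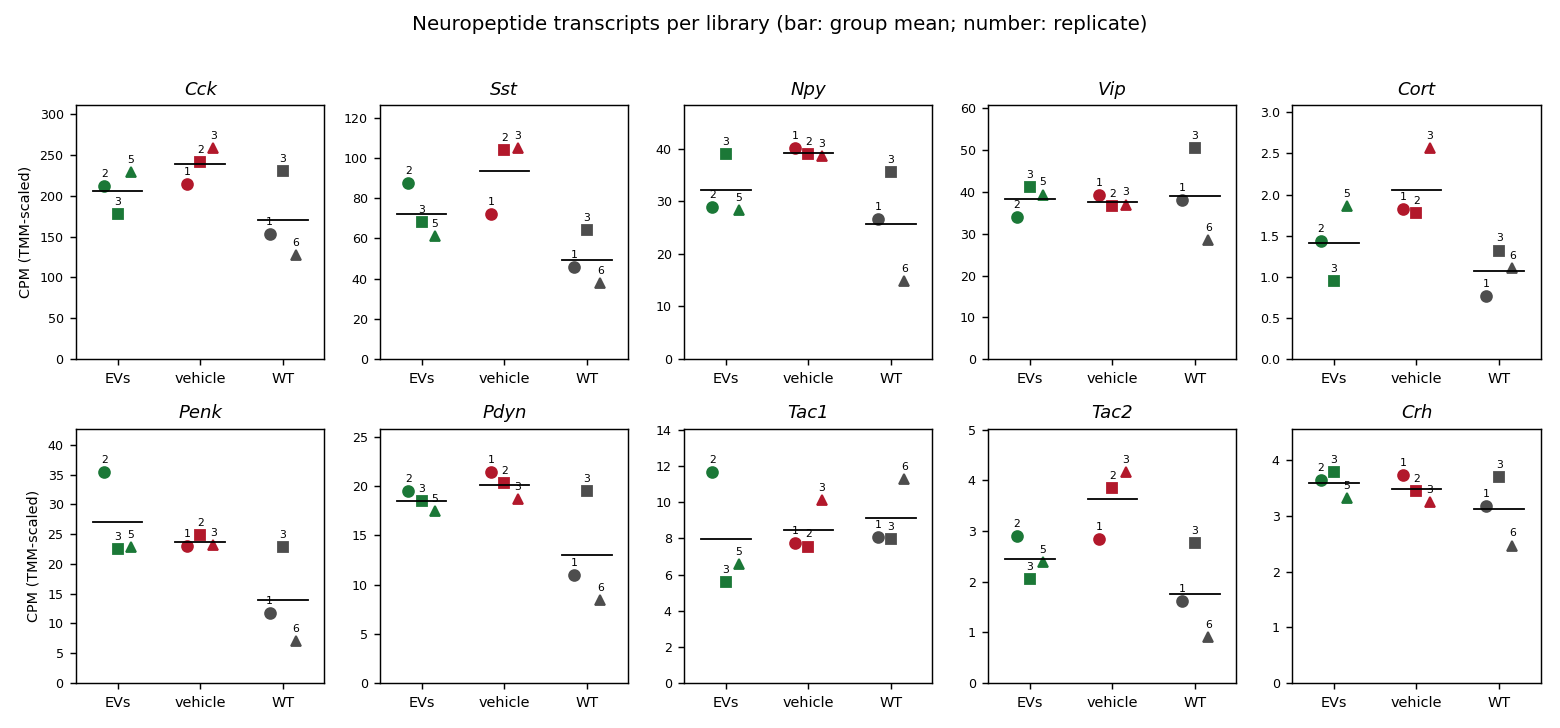
CPM of each neuropeptide gene in the 3 libraries of Rag1-/- + WT EVs, Rag1-/- + vehicle and WT, on axes that start at 0; bars are group means and numbers are replicates. For Sst, Npy, Cort, Penk and Tac2 all vehicle points lie above all WT points, and WT replicate 6 is the lowest library for 8 genes.

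WT replicate 3 held the highest WT level of 9 of the 10 members. Without it 7 members passed, namely Sst, Npy, Cort, Tac2, Penk, Pdyn and Cck, with log2 fold changes of 0.82 to 1.57, and 35% of all genes passed. Without WT replicate 6 Sst was the 1 member that passed, beside 8.21% of all genes. DESeq2 on all 9 libraries called 6 members, adding Npy, Cort, Tac2, Pdyn and Cck to Sst at log2 fold changes of 0.53 to 1.08. Its share was 13.7% of the 35062 genes given a p-value. This base was not cut by the filter on low counts, so the share cannot be set directly beside the edgeR shares.

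The comparison of Rag1-/- + WT EVs with Rag1-/- + vehicle asks what the injected vesicles changed in mice of the same genotype. No member passed edgeR's test, with adjusted p from 0.3 to 0.952, where 3.42% of all genes passed. At an unadjusted p under 0.05 the count was 0 of 10 members and 23.1% of all genes. The mean was lower in EV libraries for 7 members and higher for 3, with a median log2 fold change of -0.17 beside 0.04 over all genes. No member was without overlap between the groups, whereas 37% of all genes were. DESeq2 on all 9 libraries and limma-voom called 0 members as well. DESeq2 on the 6 libraries compared called 2, Sst at -0.41 (adjusted p = 0.0247) and Npy at -0.33 (adjusted p = 0.0434). Its share was 10.3% of the 33372 genes given a p-value, a base not cut by the filter on low counts. Without WT replicate 6 edgeR called 0 members and 16.5% of all genes. That library is in neither group compared here, but it enters through the filter on low counts, the scaling and the shared estimate of the spread.

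Sst had 87.4, 68 and 61.2 CPM in EV replicates 2, 3 and 5, against the 71.9, 104 and 105 CPM of the vehicle libraries. EV replicate 2 exceeded vehicle replicate 1, so the groups overlapped. The log2 fold change was -0.37 (SE 0.205, edgeR adjusted p = 0.3). Npy had 29, 39 and 28.3 CPM in EV libraries, against 40.2, 39 and 38.6 CPM in vehicle libraries. EV replicate 3 lay within the vehicle range, while the other EV libraries were lower, and the log2 fold change was -0.29 (edgeR adjusted p = 0.501). The coefficient of variation of Npy was 18.7% in EV and 2.1% in vehicle libraries.

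The low-level genes Cort and Tac2 had the most negative values in this comparison. Cort stood at 1.44, 0.949 and 1.86 CPM in EV libraries, against 1.82, 1.78 and 2.57 CPM in vehicle libraries, a log2 fold change of -0.54. Tac2 stood at 2.9, 2.05 and 2.38 CPM in EV libraries, against 2.84, 3.85 and 4.17 CPM in vehicle libraries, a log2 fold change of -0.57. In both genes 1 EV library exceeded the lowest vehicle library, and the edgeR adjusted p was 0.352 for Cort and 0.346 for Tac2.

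The opioid precursors lay near the vehicle level. Penk had 35.5, 22.5 and 22.9 CPM in EV libraries, against 23, 24.9 and 23.1 CPM in vehicle libraries. Only EV replicate 2 was above the vehicle range. The log2 fold change of 0.19 was -0.08 without EV replicate 2. Pdyn had 19.5, 18.5 and 17.5 CPM in EV libraries, against 21.5, 20.3 and 18.7 CPM in vehicle libraries, a log2 fold change of -0.12.

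EV replicate 2 was also the highest library for Tac1, with 11.7 CPM against 5.6 and 6.56 CPM in the other EV libraries and 7.76, 7.55 and 10.1 CPM in vehicle libraries. Penk, Tac1 and Pdyn are the peptide precursors of the striatal projection neurons, and Pdyn, at 19.5 CPM in EV replicate 2, lay within the vehicle range of 18.7 to 21.5 CPM. In the same library Drd2, the D2 dopamine receptor, reached 2.02 CPM, against 0.391 to 1.09 CPM elsewhere, and Adora2a, an adenosine receptor of the same cells, 3.46 CPM, against 1.31 to 2.34 CPM elsewhere. Drd2 and Adora2a were picked from the 9 striatal markers after their values were seen. The sum over all 9 was 191 CPM in EV replicate 2 and 143 and 145 CPM in EV replicates 3 and 5. It was 159 to 171 CPM in vehicle and 115 to 145 CPM in WT libraries. The part of striatal tissue in the Penk, Tac1 and Pdyn values was not tested.

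Vip, Cck and Crh complete the list. Vip had 34.1, 41.2 and 39.4 CPM in EV libraries, a log2 fold change of 0.02 against vehicle. Cck, at 212, 178 and 229 CPM in EV libraries, had a log2 fold change of -0.21. Crh, at 3.64, 3.8 and 3.33 CPM in EV libraries, had a log2 fold change of 0.04. All 3 overlapped the vehicle libraries.

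The comparison of Rag1-/- + WT EVs with WT gave no member past edgeR's threshold (adjusted p from 0.236 to 0.945), where 0.0446% of all genes passed. At an unadjusted p under 0.05 the members were Sst and Penk, 2 of 10, beside 16.4% of all genes, and DESeq2 on all 9 libraries and limma-voom called 0. The median log2 fold change was 0.36, beside -0.01 over all genes, and 8 of 10 means were higher in EV libraries. No member was free of overlap, against 16.5% of all genes. Sst, at 87.4, 68 and 61.2 CPM in EV libraries, overlapped the 45.8, 64 and 37.8 CPM of the WT libraries only through EV replicate 5 and WT replicate 3. Its log2 fold change was 0.55 (edgeR adjusted p = 0.25) and was 0.39 without WT replicate 6. For Penk the log2 fold change was 0.96 (SE 0.331, edgeR adjusted p = 0.236), with values of 0.64 without WT replicate 6 and 0.73 without EV replicate 2. Without WT replicate 3, Sst, Penk, Pdyn and Cck passed, at log2 fold changes of 0.58 to 1.55, and 8.16% of all genes passed. Without WT replicate 6 no member and 0.255% of all genes passed. The members' median was then 0.13, and their values ran from -0.22 (Vip) to 0.64 (Penk).

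**Figure D4:**
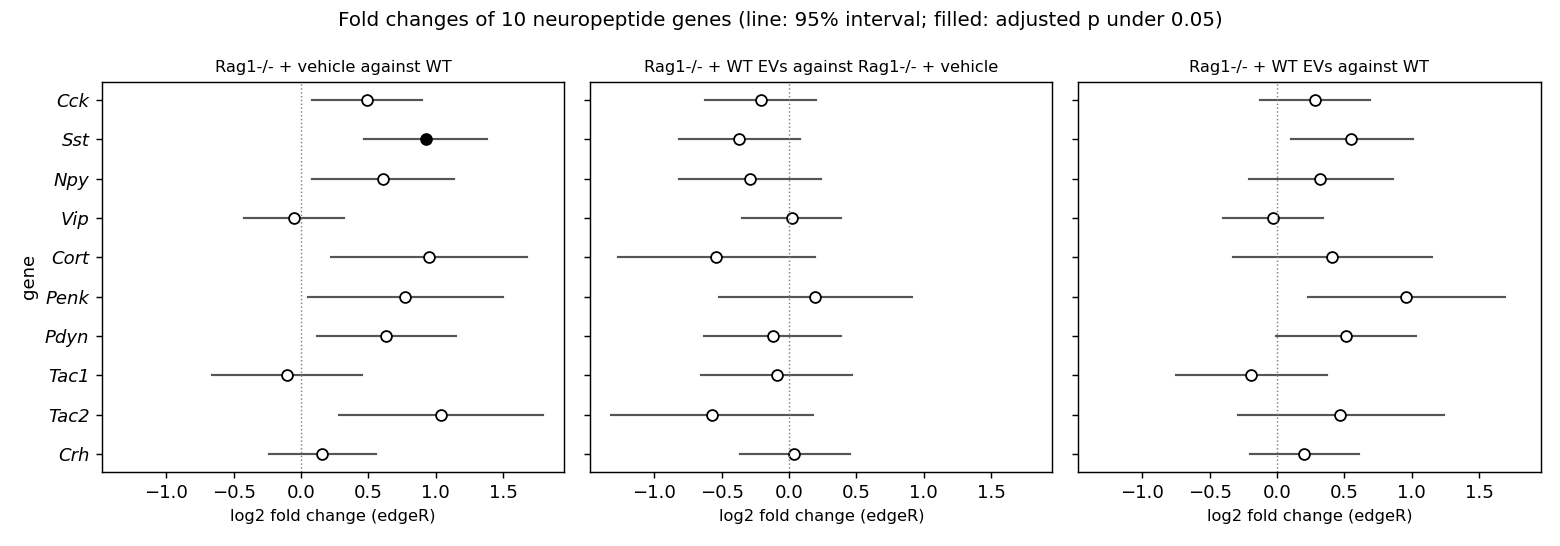
Log2 fold changes (edgeR) with 95% intervals of the 10 genes for the vehicle libraries against WT (left), the EV libraries against vehicle (middle) and the EV libraries against WT (right); a filled point has an adjusted p under 0.05. The filled point is Sst in the comparison of vehicle with WT, and Vip, Tac1 and Crh stay near 0 in all 3.

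Set against the reads of Gad1 and Gad2, the GABA-synthesising enzymes of the interneurons, the peptides gave another picture. Gad1 and Gad2 together stood at 343, 395 and 272 CPM in EV libraries, 455, 399 and 367 CPM in vehicle libraries and 314, 337 and 185 CPM in WT libraries, so they too were lowest in WT replicate 6. Per Gad1 and Gad2 reads, the log2 difference of vehicle minus WT was 0.35 for Sst and 0.1 for Npy (2-sided exact permutation p = 0.3 and 0.6). No member was without overlap as higher, where 0.156% of all genes were, and Vip (-0.6) and Crh (-0.44) were without overlap as lower, where 55.6% of all genes were. Both had an exact permutation p of 0.1, the smallest that 3 against 3 allows. Without WT replicate 6 the differences were 0.45 for Sst, 0.03 for Npy, -0.54 for Vip and -0.3 for Crh. Leaving out a library cannot create overlap, so the unchanged separation of Vip and Crh adds nothing. Crh was without overlap as higher in EV minus vehicle (0.32, exact permutation p = 0.1), where 27.9% of all genes were. No member was so in EV minus WT, where 4.51% of all genes were in either direction, and Penk had the largest log2 difference (0.76, exact permutation p = 0.2).

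The ratio of each peptide to Vip in the same library removes only what acts on both genes alike. Vip was chosen as the denominator after its small differences had been seen, so these ratios are a description with no test. Sst reads were 2.56, 1.65 and 1.56 times those of Vip in EV libraries and 1.83, 2.84 and 2.82 times in vehicle libraries, against 1.2, 1.26 and 1.33 times in WT libraries. The WT ratios of Sst were close to each other, WT replicate 6 included, and all 6 Rag1-/- libraries lay above them. Other members differed: the Tac1 ratio was 0.212, 0.157 and 0.398 in WT replicates 1, 3 and 6, so replicate 6 still stood apart. For Npy the ratio was 0.85, 0.948 and 0.718 in EV libraries and 1.02, 1.06 and 1.04 in vehicle libraries, against 0.699, 0.702 and 0.525 in WT libraries. Again both Rag1-/- groups lay above WT, with the EV libraries all below the vehicle libraries. Overlap was counted on the log2 scale after adding 0.5 CPM to both genes of a ratio. In vehicle against WT 7 of the other 9 members then had higher ratios without overlap (Sst, Npy, Cort, Tac2, Penk, Pdyn and Cck), where 12.4% of all genes did. Against WT the EV libraries had 4 (Sst, Npy, Penk and Pdyn), where 5.65% of all genes did. Between EV and vehicle libraries only Npy was without overlap, as lower, where 11.5% of all genes were. The ratio of Crh to Vip was 0.0954, 0.0942 and 0.0877 in vehicle libraries, against 0.0835, 0.0732 and 0.0871 in WT libraries. On these plain ratios, with nothing added, Crh too was without overlap, which made 8 of 9 members beside 13% of all genes, although its lowest vehicle and highest WT ratios nearly met. The plain ratios left the counts of the other comparisons at 4 and 1.

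**Figure D5:**
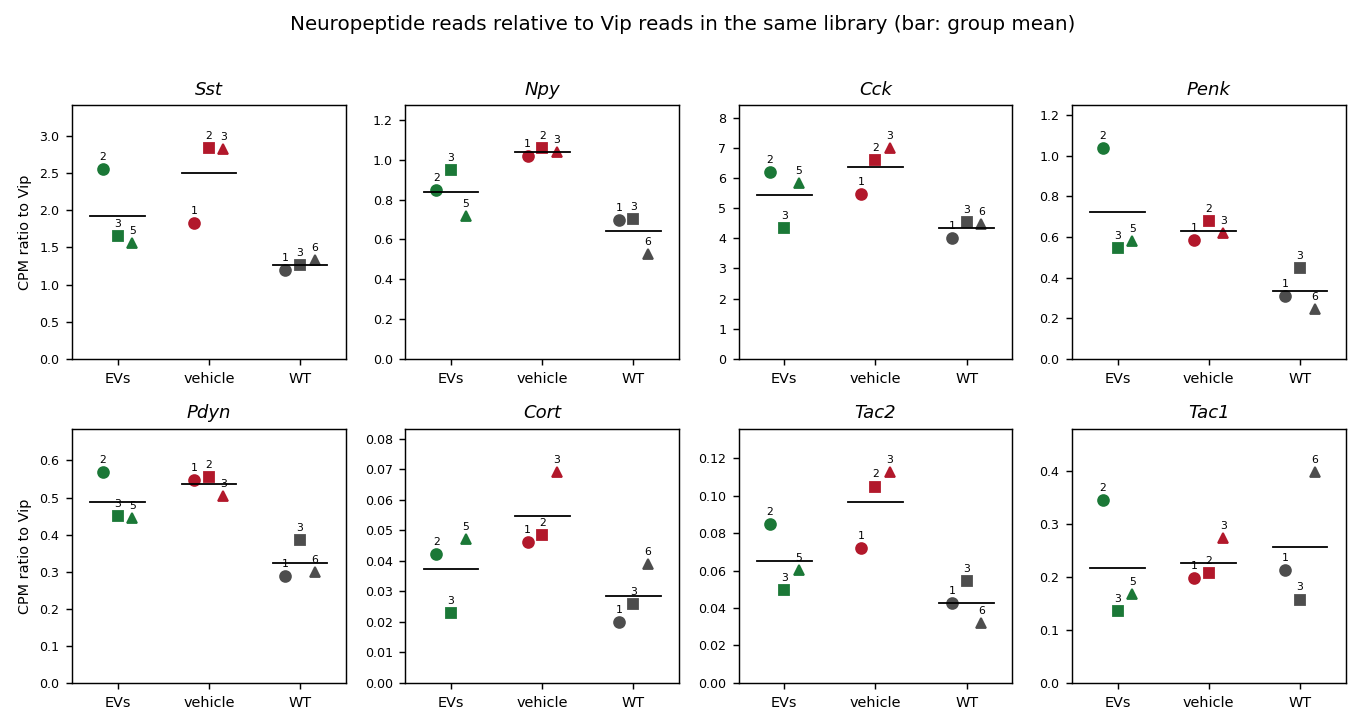
CPM of 8 neuropeptide genes divided by the CPM of Vip in the same library, in the 3 libraries of Rag1-/- + WT EVs, Rag1-/- + vehicle and WT, on axes that start at 0; bars are group means. For Sst the 3 WT ratios lie between 1.2 and 1.33, below all 6 Rag1-/- libraries, while the Tac1 ratios of the groups overlap.

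The calls in this and the following lists depended on single libraries. In vehicle against WT 0 of all genes passed without vehicle replicate 2 or 3, 3 without vehicle replicate 1 and 1 without WT replicate 1. In EV against vehicle 0 passed without EV replicate 2 or 5 or vehicle replicate 2 or 3, and 1 without vehicle replicate 1. With the outside-exon share as a covariate, 109 passed in vehicle against WT. The receptors of these peptides were followed as a list. Of 20 receptor and binding-protein genes, 18 were tested and Sstr5 and Cckar were not. In vehicle against WT 2 of 18 passed, both higher, beside 6.28% of all genes. Sstr1, a somatostatin receptor, averaged 21.5 ± 0.125 CPM in vehicle and 14.2 ± 2.77 CPM in WT libraries (SD, n = 3 each), with a log2 fold change of 0.6 (edgeR adjusted p = 0.0251). Npy1r, the Y1 receptor of neuropeptide Y, averaged 25.1 ± 0.64 CPM in vehicle and 16.7 ± 3.98 CPM in WT libraries, with a log2 fold change of 0.59 (edgeR adjusted p = 0.0381). Leaving out WT replicate 6, Sstr1 passed and Npy1r did not. In EV against vehicle 1 of 18 passed, beside 3.42% of all genes in either direction. It was Oprd1, the delta opioid receptor that binds enkephalins, which was lower, at 23.8 ± 1.12 CPM in EV and 34 ± 2.48 CPM in vehicle libraries, a log2 fold change of -0.51 (edgeR adjusted p = 0.0329). Leaving out the same WT library, 4 of 18 were lower in EV than in vehicle libraries (Oprd1, Sstr1, Npy1r and Cckbr). In that setting 16.5% of all genes passed in either direction. None of the 18 passed between EV and WT libraries.

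Genes for packing and cutting peptide precursors formed another list. Of 15, all tested, 6 were higher and 0 lower in vehicle against WT, beside 6.28% of all genes higher and 9.71% lower. Without WT replicate 6 the list counts were the same, beside 8.21% of all genes in either direction. Chgb, a granin of dense-core vesicles, averaged 237 ± 18 CPM in vehicle and 106 ± 31.1 CPM in WT libraries, with a log2 fold change of 1.16 (edgeR adjusted p = 0.0169). The related granin Chga had a log2 fold change of 0.88, and Ptprn2, a transmembrane protein of the dense-core vesicle, 0.66. Against vehicle, Chgb of EV libraries passed as lower, at 134 ± 21 CPM in EV and 237 ± 18 CPM in vehicle libraries, a log2 fold change of -0.82 (edgeR adjusted p = 0.0456), and 0 of 15 were higher. There 5 were lower and 1 higher without WT replicate 6, beside 16.5% of all genes in either direction. Between EV and WT libraries 0 of 15 passed. Of 10 further peptide precursors 6 were tested, and 0 passed in any comparison.

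Markers of the cells that make the peptides were followed over the same libraries. Of 18 general GABAergic genes, Dlx5, a factor of interneuron development, was higher in vehicle than in WT libraries (2.34 ± 0.106 CPM in vehicle, 1.03 ± 0.122 CPM in WT) and Sox6 lower (log2 fold change -0.39). In that comparison 6.28% of all genes passed as higher and 9.71% as lower. Of 16 markers of interneuron classes 4 were higher and 0 lower, among them Ndnf of neurogliaform cells (0.72), Nos1 (0.57), which marks a subset of somatostatin and Npy cells, and Calb2 (0.86), which many Vip cells express. The fourth, Grin3a, did not pass without WT replicate 6. Between EV and vehicle libraries Lhx6, a factor kept by somatostatin and parvalbumin cells, was lower (log2 fold change -0.57, edgeR adjusted p = 0.0394), and 0 of the 16 class markers passed. There 3.42% of all genes passed in either direction. Without WT replicate 6, 3 of the 16 passed, all lower, beside 16.5% of all genes in either direction. Between EV and WT libraries none of either list passed, and without WT replicate 6 Ndnf did, as higher.

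Of 9 pyramidal cell markers 4 were higher in vehicle than in WT, among them Tbr1 (log2 fold change 0.44) and Neurod6 (0.61), and 3 were lower in EV than in vehicle, among them Neurod6 (-0.79) and Tbr1 (-0.39). Over all genes 6.28% passed as higher and 9.71% as lower in vehicle against WT, and 3.42% in either direction in EV against vehicle. The marker counts were 2 and 5 without WT replicate 6, where 8.21% and 16.5% of all genes passed in either direction. Between EV and WT libraries 0 passed. Of 12 activity-regulated genes 11 were tested, and in vehicle against WT Junb (0.86) and Egr1 (0.82) were higher and Crem, a cAMP-responsive factor, was lower (-0.44). Junb and Egr1 did not pass without WT replicate 6. In EV against vehicle and in EV against WT 0 of the 11 passed. Without WT replicate 6, 3 were lower in EV than in vehicle libraries, beside 16.5% of all genes in either direction.

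Markers of other cell types stood beside these differences. Of 8 astrocyte genes 6 were lower in vehicle than in WT libraries and 4 higher in EV than in vehicle libraries. Over all genes 9.71% passed as lower in vehicle against WT, and 3.42% passed in either direction in EV against vehicle. Without WT replicate 6 the astrocyte counts were 7 and 8, where 8.21% and 16.5% of all genes passed in either direction. The sum of the 8 genes was 10300 to 10600 CPM in EV, 7330 to 8290 CPM in vehicle and 10900 to 12800 CPM in WT libraries. The sum of 7 meningeal genes was 714 to 1230 CPM in EV, 446 to 581 CPM in vehicle and 231 to 452 CPM in WT libraries. Of the 9 striatal markers 8 were tested. Pde10a was higher in vehicle than in WT (log2 fold change 0.48), where 6.28% of all genes were higher. In the other comparisons 0 passed, with Pde10a lower in EV than in vehicle libraries once WT replicate 6 was left out. Lymphocyte markers summed to at most 1.09 CPM in any library, and 1 of 7 was tested. The part of these cell types in the peptide values was not tested.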

How the data were processed

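The authors sequenced directional PFC libraries as read pairs, converted them with bcl2fastq (2.18.0.12), aligned them to GRCm38 with STAR (2.7.5c) and counted reads over exons with HTSeq (0.11.1 per the labels) at a minimum alignment quality of 10, without strand. They deposited raw gene counts for 9 libraries in 1 table. Its summary lines, which name no gene, were kept out of library sizes; reads outside exons were 6.54 to 30.1% and ambiguous reads 3.1 to 4.31%. GENCODE M21 matched 55230 of 56246 identifiers (98.19%) and gave exonic lengths. CPM used TMM-scaled library sizes.

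All 9 libraries were fitted by group in edgeR (4.0.16, R 4.3.3) with TMM and filterByExpr (minimum count 10, total 15). The 2-sided quasi-likelihood test was adjusted by Benjamini-Hochberg over 17948 genes and called under 0.05. SE is the log2 fold change divided by the square root of F. Ratios to Gad1 and Gad2 and to Vip used log2 of CPM with a pseudocount of 0.5. On simulated data for vehicle against WT (17948 genes) the fit recovered 43% of 1.5-fold and 84% of 2-fold changes, with 2 wrong calls. The simulated libraries were drawn independently around shared means, without a library-wide shift such as that of WT replicate 6. Recovery and wrong calls in the real libraries were not tested.

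Members and lists were chosen with earlier results of these data known. Named were the 10 members, Rag1, up to 3 called genes with the smallest p per list and comparison, and the 3 genes most like each called member. Drd2 and Adora2a were named after their values were seen. A gene that this rule selects is not reported here. Alternatives were DESeq2 (1.42.0), limma-voom (3.58.1), other scaling, filters and sample sets, a replicate block, GC and length offsets, 1 surrogate variable (sva 3.50.0), the share of reads outside exons, and each library left out. The ratio to Vip, its form without a pseudocount and the lists without single libraries were added after the values were seen.

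Libraries of different groups with the same replicate number had correlated deviations of -0.0747 to 0.105, and no comparison shared more than 2 numbers, so pairing was not shown. Figures were drawn with matplotlib.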

Additional observations from a re-analysis of the deposited data

How the results depend on the processing

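Sst in vehicle against WT kept its positive direction under all 21 alternatives and its call in 9 of 12 alternative models. It lost the call with edgeR on the 6 libraries compared (0.92), 1 surrogate variable (0.6) and the share of reads outside exons (0.57), and leaving out libraries gave 0.77 to 1.21. With 3 libraries per group, 43% of 1.5-fold changes were recovered in a simulation in which no library stood apart, so missing calls do not show equal levels. The cause of the changes below was not tested.

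Members called in vehicle against WT were 6 with DESeq2 on all 9 libraries, 2 with DESeq2 on 6, 0 with edgeR on 6, 6 without a filter, 4 with GC and length offsets, 0 with the surrogate variable, 0 with the share of reads outside exons, and 0 to 7 when libraries were left out. In EV against vehicle they were 2 with DESeq2 on 6 libraries and otherwise 0 without a block. In EV against WT they were 2 without a filter and 0 to 4 when libraries were left out. Genes called in vehicle against WT, 2871 in the reported fit, were 4789 with DESeq2 on 9, 3646 with DESeq2 on 6, 0 with edgeR on 6 (5387 at an unadjusted p under 0.05), 1608 with limma-voom, 5089 without a filter, 176 with the surrogate variable, 109 with the share of reads outside exons, and 0 to 6602 leaving out libraries. In EV against vehicle (613) these counts were 1983, 3453, 3289, 444, 1102, 2219 and 1827, and 0 to 2985 leaving out libraries, with 1149 at a filter of 1 CPM in 3 libraries. In EV against WT (8) they were 340, 161, 0 (1890 at an unadjusted p under 0.05), 6, 668, 32 and 28, and 0 to 1537 leaving out libraries, with 20 at a filter of 1 CPM.

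The replicate block, with at most 2 shared numbers per comparison, called 712, 741 and 5 genes in vehicle against WT, EV against vehicle and EV against WT, and with GC and length offsets 1214, 1218 and 6. In EV against vehicle the block called 1 member (Sst, -0.44) and with the offsets 2 (Sst, -0.58, and Cck, -0.54). In EV against WT the block turned Tac2 to -0.14 and Cck to -0.14, and with the offsets to -0.14 and -0.16. It changed no other call of a member.

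Members without overlap per Gad1 and Gad2 reads were 2 to 5 in vehicle against WT, 1 to 3 in EV against vehicle and 0 to 3 in EV against WT leaving out libraries, and 7, 1 and 4 with Vip as the denominator.

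The following values turned sign. In vehicle against WT, Vip was 0.01 without a filter and 0.14 with the offsets, Tac1 0.04 (block with offsets), 0.12 (surrogate variable) and 0.15 (share of reads outside exons), and Crh -0.11 and -0.13 under the last 2 of these. In EV against vehicle, Vip was -0.02 with DESeq2 on 9 and on 6 libraries, -0.01 with its size factors, -0.02 without a filter, -0.04 with the block, -0.11 with the offsets and -0.16 with both. Crh was -0.09 with the offsets and 0 with both, and Pdyn 0.05 and 0.09 with the surrogate variable and the share outside exons. In EV against WT, Vip was 0.01 with limma-voom and 0.03 with the offsets, and Npy -0.01 with the share outside exons. Leaving out libraries gave -0.24 to 0.23 for Vip and -0.22 to 0.08 for Tac1 in vehicle against WT. It gave -0.06 to 0.08 for Vip, -0.5 to 0.09 for Tac1, -0.04 to 0.07 for Crh and -0.08 to 0.28 for Penk in EV against vehicle, and -0.22 to 0.22 for Vip and -0.56 to 0.02 for Tac1 in EV against WT.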
